A study of Homo sapiens with 12 samples.

Results

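Hypoxia-responsive and glycolysis genes were followed in LNCaP cells after transfection of SRRM4, LSD1+8a or LSD1. The set holds 37 genes, given by name, and all 37 were present among the 13001 genes of the count table. It divides into 16 core glycolytic enzymes and 21 HIF-responsive genes. The members were selected on measured values of these libraries, since they were proposed with their expression differences between groups in view, and which comparison drew in which gene is not recorded. Counts of members that passed a test are therefore descriptions of these libraries and support nothing further. LSD1+8a cells had less transcript than LSD1 cells of 6 members: the glucose transporter SLC2A1, the regulators PFKFB4 and EGLN1, the hexokinase HK2, and PPFIA4 and ZNF395. SRRM4 cells had less ZNF395 and ANKRD37 than cells with empty vector (EV), and more of the enzymes ALDOC, GPI, PKM and PGAM1 than LSD1+8a cells. No member passed the test between LSD1 and EV. All of these differences were smaller than 2-fold, and each call was lost under at least 1 other processing or library choice named beside it. Over all genes 0.323% passed in LSD1+8a against LSD1, 7.68% in SRRM4 against EV and 7.58% in SRRM4 against LSD1+8a. Among the members the shares were 16.2%, 5.41% and 10.8%, in that order, and the last 2 lie near background when both directions are pooled. The 4 calls in SRRM4 against LSD1+8a were all core enzymes called higher, 25% of that class, against 4.42% of all genes. In SRRM4 against LSD1, 21.6% of the members were called, 2 higher and 6 lower, against 7.05% of all genes.

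Glycolysis splits glucose into pyruvate, and lactate dehydrogenase turns pyruvate into lactate when cells run on fermentation. When oxygen is scarce, the prolyl hydroxylases of the EGLN family stop marking HIF1A for destruction, and the HIF1 complex binds the core motif ACGTG or GCGTG near its target genes. Those targets include the glucose transporter SLC2A1, most glycolytic enzymes, kinases that steer pyruvate away from mitochondria, and VEGFA. HIF1A itself is mainly controlled at the protein level, which RNA does not measure. The labels name no hypoxia treatment.

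The 4 groups had 3 libraries each: SRRM4 cells carried a plasmid for SRRM4, a splicing factor that adds neuronal microexons to messenger RNAs. LSD1+8a cells carried LSD1, the histone demethylase encoded by KDM1A, with the neuronal exon 8a. LSD1 cells carried the form without that exon, and EV cells carried the empty vector. All groups were LNCaP cells of clone FGC, a single line from a lymph node metastasis of prostate cancer, at passage 8, transfected transiently with Lipofectamine and given fresh medium after 6 hours. They grew in RPMI 1640 with serum, and polyA RNA was sequenced. The share of cells that took up a plasmid is not given in the sources used here, and in bulk RNA fewer responding cells and a smaller change per cell cannot be told apart. Nothing in the labels tells whether a group's 3 libraries are independent cultures. P-values therefore reflect only how far these libraries scatter, possibly for technical reasons.

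Library totals, rounded, were 10876300 to 11485500 counts in SRRM4 cells, 12110100 to 13359700 counts in LSD1+8a cells, 11658700 to 12565300 counts in LSD1 cells and 12750600 to 13570700 counts in EV cells. KDM1A had 96.9, 92.0 and 100.1 counts-per-million (CPM) in SRRM4 cells, 2608, 1983 and 2211 CPM in LSD1+8a cells and 515, 587 and 519 CPM in LSD1 cells, against 94.0, 95.2 and 93.7 CPM in EV cells. SRRM4 was not among the 13001 genes analysed here, so its own transcript gives no check of that label. LSD1+8a cells differed from LSD1 cells in the amount of KDM1A transcript as well as in the exon, and the 2 differences cannot be told apart. All 11 luminal prostate and LNCaP markers were measured. Their summed level was 5978 to 6024 transcripts-per-million (TPM) in SRRM4 cells, 6518 to 6739 TPM in LSD1+8a cells and 6768 to 6968 TPM in LSD1 cells, against 6551 to 6640 TPM in EV cells. Of the neuroendocrine list 2 of 7 genes were measured, SYP and the member ENO2. SYP had 16.6, 15.7 and 17.7 TPM in SRRM4 cells, against 1.44, 2.26 and 1.17 TPM in EV cells. The part of these marker shifts in the SRRM4 results below was not tested. Basal, fibroblast, and leukocyte and endothelial lists had 1 of 4, 2 of 5 and 2 of 5 genes measured, with sums of 2.06 to 11.3 TPM over all libraries, and their defining markers KRT5, TP63, DCN, PTPRC and PECAM1 were not among the genes of the table.

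Promoters are shown for 6 of the members that passed a test, taken by smallest adjusted p among those with a RefSeq promoter entry. The HIF core motif played no part in this choice. Each is 250 bases before and 50 after the RefSeq transcription start in GRCh38.p14, 5′ to 3′ on the gene's strand, with ACGTG or its reverse complement CACGT in capitals. CACGTG, which reads the same on both strands, holds both.
HK2, chr2:74833877-74834176, plus strand: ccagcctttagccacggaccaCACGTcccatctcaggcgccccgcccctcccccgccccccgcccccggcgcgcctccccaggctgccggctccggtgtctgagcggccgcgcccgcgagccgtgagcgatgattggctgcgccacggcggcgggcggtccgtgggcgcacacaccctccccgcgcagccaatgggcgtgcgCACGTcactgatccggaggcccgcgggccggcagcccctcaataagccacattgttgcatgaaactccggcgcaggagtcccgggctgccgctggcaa
PFKFB4, chr3:48556754-48557053, minus strand: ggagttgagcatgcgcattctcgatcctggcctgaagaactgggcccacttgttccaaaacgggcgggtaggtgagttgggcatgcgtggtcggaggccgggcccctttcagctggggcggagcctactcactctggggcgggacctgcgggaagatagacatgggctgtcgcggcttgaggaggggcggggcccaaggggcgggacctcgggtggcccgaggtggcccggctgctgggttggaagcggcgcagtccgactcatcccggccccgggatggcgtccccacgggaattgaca
ALDOC, chr17:28576846-28577145, minus strand: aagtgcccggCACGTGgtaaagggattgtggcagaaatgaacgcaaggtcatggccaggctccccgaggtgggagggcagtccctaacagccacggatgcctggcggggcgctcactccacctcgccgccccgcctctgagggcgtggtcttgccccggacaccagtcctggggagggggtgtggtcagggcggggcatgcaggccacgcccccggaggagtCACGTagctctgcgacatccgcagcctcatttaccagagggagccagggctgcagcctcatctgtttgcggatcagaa
EGLN1, chr1:231422238-231422537, minus strand: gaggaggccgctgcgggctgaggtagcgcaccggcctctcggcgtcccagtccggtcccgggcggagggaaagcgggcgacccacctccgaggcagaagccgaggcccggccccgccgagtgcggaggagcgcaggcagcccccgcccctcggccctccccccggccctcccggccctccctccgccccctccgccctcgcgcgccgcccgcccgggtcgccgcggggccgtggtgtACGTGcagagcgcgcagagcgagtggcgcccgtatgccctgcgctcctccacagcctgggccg
PPFIA4, chr1:203026241-203026540, plus strand: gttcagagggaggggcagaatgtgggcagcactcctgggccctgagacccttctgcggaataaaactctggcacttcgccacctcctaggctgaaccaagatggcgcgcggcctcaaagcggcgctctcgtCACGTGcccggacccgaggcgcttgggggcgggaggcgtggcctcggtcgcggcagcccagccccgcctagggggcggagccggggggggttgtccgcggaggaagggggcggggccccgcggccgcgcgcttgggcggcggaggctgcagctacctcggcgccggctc
GPI, chr19:34364742-34365041, plus strand: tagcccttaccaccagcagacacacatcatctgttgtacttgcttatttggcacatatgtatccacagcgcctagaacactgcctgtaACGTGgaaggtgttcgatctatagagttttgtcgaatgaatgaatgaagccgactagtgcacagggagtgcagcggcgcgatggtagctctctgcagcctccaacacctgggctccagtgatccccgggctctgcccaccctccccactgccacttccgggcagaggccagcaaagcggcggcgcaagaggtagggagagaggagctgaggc

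HK2 held CACGT at 2 places, and PPFIA4 had a single CACGTG. ALDOC had a CACGTG far from the start and a CACGT nearer to it, while EGLN1 and GPI each held 1 ACGTG. No capital letters stand in the PFKFB4 window, which held only the other form of the core motif, GCGTG. That form, not capitalized here, was also in the HK2, ALDOC and PPFIA4 windows. RefSeq promoters were matched for 33 of the 37 members, taking the first listed start of a gene. BNIP3L, NDRG1, ZNF395 and VEGFA had no entry. ACGTG on either strand was in 17 of the 33 windows (51.5%), in 8 of 16 core enzyme windows and in 9 of 17 HIF-responsive windows (52.9%). Among all 35116 promoter windows of the same length, 7518 held it (21.4%). That background keeps every listed start of a gene, unlike the members' windows, so the 2 shares are not of the same unit. GCGTG on either strand was in 51.5% of the members' windows and 36.5% of all windows, and CACGTG, which overlaps ACGTG, in 21.2% and 7.26%. A match is a stretch of letters in these windows, not a bound site. The list was made of genes named for hypoxia and glycolysis, so a higher share of the HIF motif may follow from how it was made.

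Levels per transcript length spanned a wide range. In EV cells GAPDH, which oxidizes glyceraldehyde 3-phosphate, averaged 4016 TPM and was the 25th highest of all genes. ALDOA averaged 1799 TPM, ENO1 1361 TPM, TPI1 1273 TPM and LDHA 931 TPM, and 9 core enzymes stood above every HIF-responsive gene. The core enzymes HK2 (17.9 TPM) and ENO2 (20.0 TPM) lay far below them. The highest HIF-responsive genes were BNIP3, a mitophagy receptor, at 296 TPM, DDIT4, an inhibitor of the kinase mTORC1, at 295 TPM, and VEGFA, the angiogenic growth factor, at 181 TPM. The lowest member was PPFIA4, a liprin scaffold protein, at 6.58 TPM. The members with the largest called differences below, PPFIA4, ANKRD37 and PFKFB4, were all at or under 16.3 TPM.

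**Figure D1:**
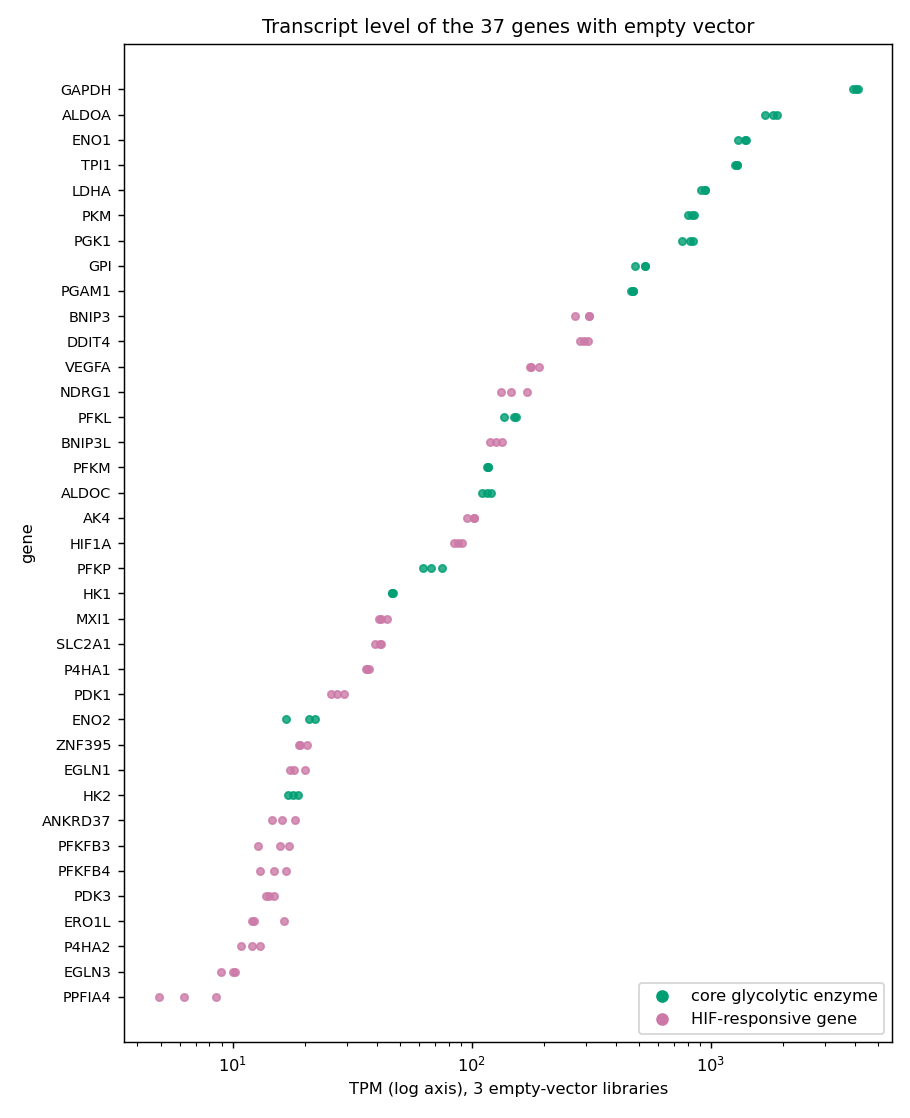
Transcript level of the 37 genes in the 3 empty-vector libraries, TPM on a log axis, 1 point per library, coloured by class. Core enzymes fill the top 9 rows, from PGAM1 at 469 TPM to GAPDH at 4016 TPM, and HIF-responsive genes fill most of the lower rows.

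The LSD1 libraries stood apart in the HIF-responsive genes, and no group stood apart in the core enzymes. Mean log2 CPM of the 21 HIF-responsive genes, relative to the EV mean, was -0.06, -0.16 and -0.09 in the SRRM4 libraries, -0.15, -0.08 and -0.16 in the LSD1+8a libraries and 0.14, 0.08 and 0.08 in the LSD1 libraries, against 0.04, 0.05 and -0.08 in the EV libraries. The LSD1 libraries were higher than all others. EV replicate 3 stood within the range of the SRRM4 and LSD1+8a libraries, and no other EV library did. For the 16 core enzymes the same mean was 0.07, 0.06 and 0.02 in the SRRM4 libraries, -0.07, 0.03 and -0.10 in the LSD1+8a libraries and 0.10, 0.0069 and 0.03 in the LSD1 libraries, against 0.01, 0.06 and -0.07 in the EV libraries. Here the 4 groups overlapped.

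The difference between the 2 classes within a library (HIF-responsive minus core, mean log2 CPM relative to the EV mean) was -0.14, -0.21 and -0.11 in the SRRM4 libraries, -0.07, -0.11 and -0.05 in the LSD1+8a libraries and 0.04, 0.07 and 0.04 in the LSD1 libraries, against 0.02, -0.01 and -0.01 in the EV libraries. No 2 groups overlapped on this difference, although SRRM4 replicate 3 (-0.114) and LSD1+8a replicate 2 (-0.108) nearly met. The difference removes a shift of equal size in all members of a library, and not one that depends on level. Summed TPM of the core enzymes was 13067 ± 233 in SRRM4 cells, 12332 ± 563 in LSD1+8a cells and 13079 ± 340 in LSD1 cells, against 12526 ± 399 in EV cells (SD, n = 3 each). Summed TPM of the HIF-responsive genes was 1449.5 ± 54.9 in SRRM4 cells, 1474 ± 41.0 in LSD1+8a cells and 1619 ± 42.2 in LSD1 cells, against 1523 ± 69.1 in EV cells (SD, n = 3 each). These class values are descriptions, with no test, of members that were proposed with differences between groups in view.

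**Figure D2:**
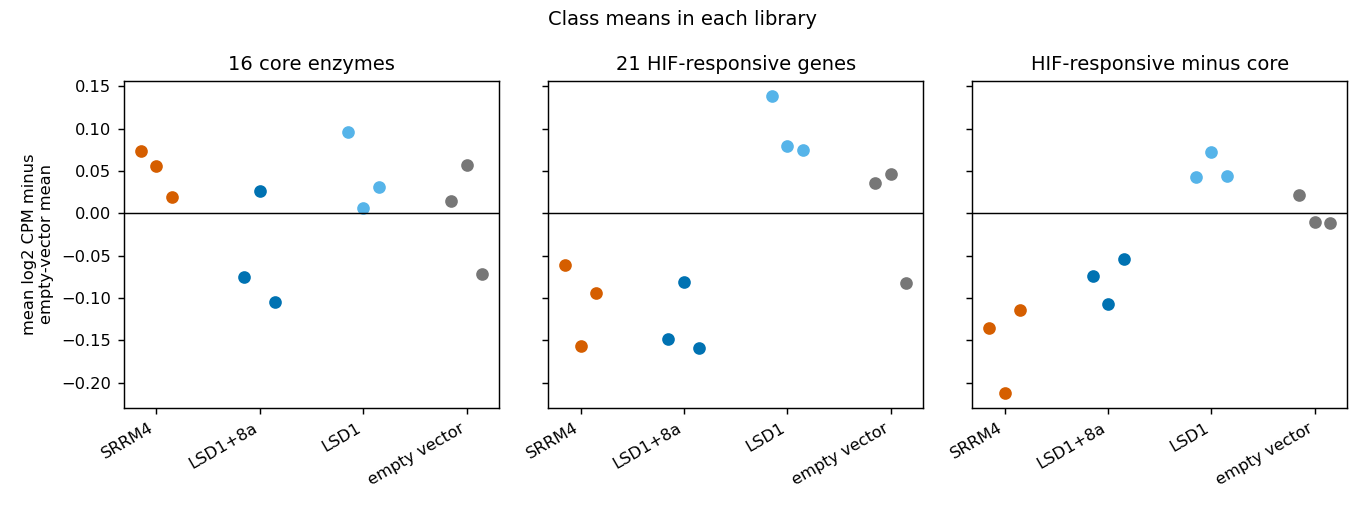
Mean log2 CPM of the 16 core enzymes (left), the 21 HIF-responsive genes (middle) and their difference (right) in each library, relative to the mean of the 3 empty-vector libraries, 1 point per library. The difference was -0.05 or lower in every SRRM4 and LSD1+8a library and 0.04 or higher in every LSD1 library.

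Single libraries shifted many members at once. EV replicate 3 was the lowest of its group for 30 of the 37 genes and EV replicate 2 the highest for 24. LSD1+8a replicate 2 was the highest of its group for 25 genes, and LSD1 replicate 1 for 23. Among the 16 core enzymes EV replicate 3 was the lowest for 14, EV replicate 2 the highest for 15, and LSD1+8a replicate 2 and LSD1 replicate 1 the highest for 14 each. The members of a library thus did not vary independently, and results below are given without the library they rest on.

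**Figure D3:**
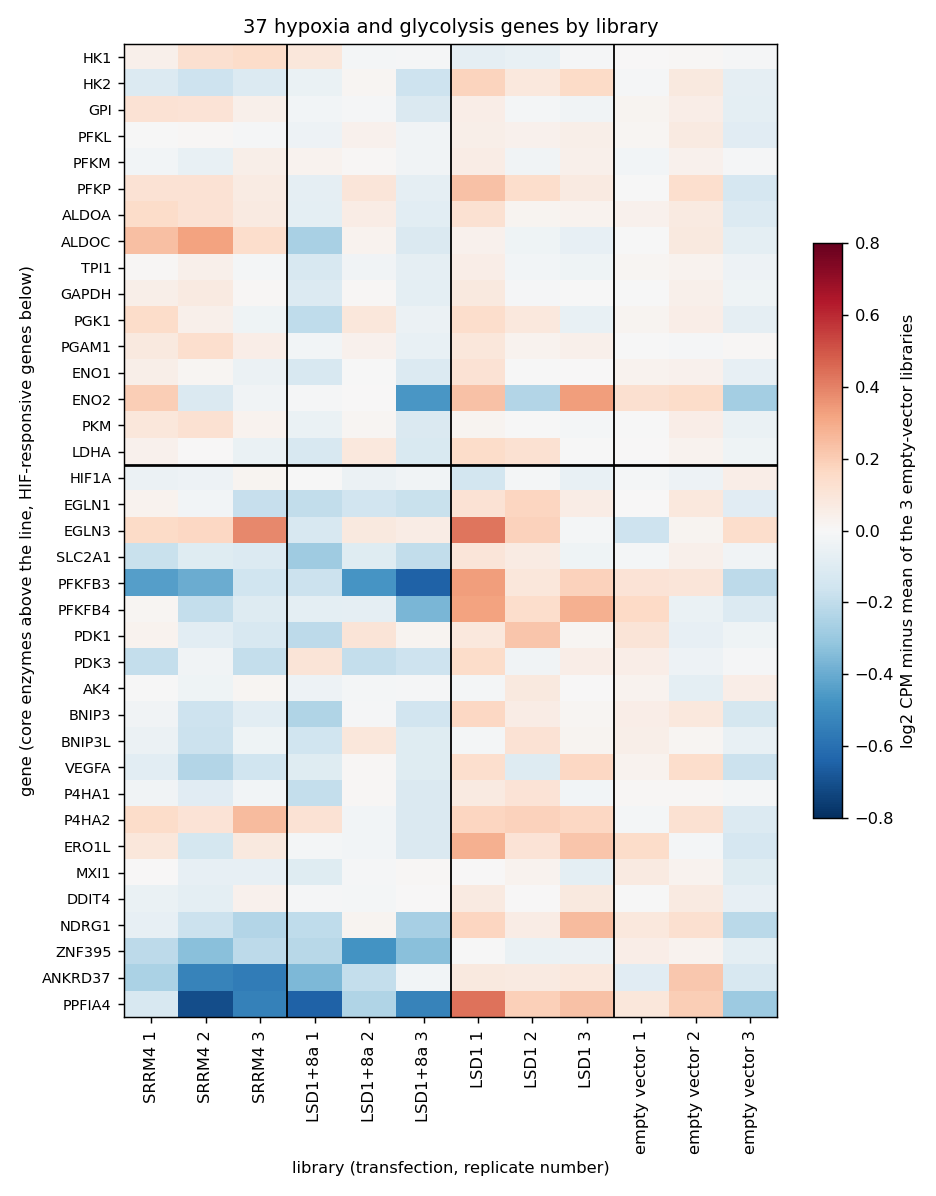
Log2 CPM of the 37 genes in each of the 12 libraries, minus the mean of the 3 empty-vector libraries, with core enzymes above the line and HIF-responsive genes below. ZNF395 is below its EV mean in all 6 SRRM4 and LSD1+8a columns, and SLC2A1 is as well.

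The 6 comparisons were tested on counts in 1 edgeR fit of the 4 groups, and a gene was called where its p, adjusted by the Benjamini-Hochberg method over 13001 genes, was under 0.05. The comparisons share libraries, so their results are given side by side and not counted as repeats of each other. LSD1+8a against LSD1, which sets the form with the exon against the form without it at unequal KDM1A levels, is given first. There 6 members were called lower (PFKFB4, SLC2A1, EGLN1, PPFIA4, HK2 and ZNF395) and none higher, where 0.115% of all genes were called lower and 0.208% higher. The 3 LSD1+8a libraries lay below all 3 LSD1 libraries for 14 of 37 members, against 5.51% of all genes, and above them for 0 members, against 6.16%. The log2 fold change was below 0 for 35 of 37 members (50.4% of all genes), with HK1 and HIF1A above 0. Its median was -0.21 for the HIF-responsive genes, -0.08 for the core enzymes and -0.00063 over all genes. Fits without single libraries gave fewer calls: 1 member without LSD1 replicate 1, 2 without LSD1+8a replicate 3, 3 each without LSD1 replicate 2 and LSD1 replicate 3, 4 without LSD1+8a replicate 1 and 6 without LSD1+8a replicate 2. With limma-trend on the TPM values 0 members were called.

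Against EV the members moved less. LSD1+8a against EV had 1 member called lower, ZNF395, and none higher, where 0.0615% of all genes were called lower and 0.285% higher, and 3 members (EGLN1, SLC2A1 and ZNF395) lay below all EV libraries against 5.64% of all genes, and 0 above them against 6.12%. All 21 HIF-responsive genes had a log2 fold change below 0 (49.6% of all genes), with a median of -0.07, and 14 of 16 core enzymes did, with a median of -0.05. Without EV replicate 3 or without LSD1+8a replicate 2 there were 2 calls. LSD1 against EV had no member called by edgeR (0.1% of all genes were called, 0.0462% higher and 0.0538% lower), limma-voom or limma-trend. DESeq2 gave an adjusted p to only 13 members and 651 genes there, none of the 13 was called, and it gave none to HK2, PFKP, PFKFB4 and ERO1L. These 4 members were higher at an unadjusted p under 0.05 in edgeR, against 3.09% of all genes, and 0 were lower, against 2.8%. Libraries did not overlap for 3 members higher in LSD1 cells (5.48% of all genes) and 1 lower (6.21%). The log2 fold change was below 0 for 6 of 37 members (48.9% of all genes). Medians there were 0.07 for the HIF-responsive genes and 0.04 for the core enzymes. SRRM4 against EV had 2 members called lower, ANKRD37 and ZNF395, and none higher, where 7.68% of all genes were called, 3.22% lower and 4.47% higher. The 2 of 37 is near that background, and RLE size factors, DESeq2, limma-voom and the replicate block each added ALDOC as 1 higher. The SRRM4 libraries lay above all EV libraries for 4 members (13% of all genes) and below them for 5 (12.3%). Its medians were -0.08 for the HIF-responsive genes, of which 18 of 21 were below 0, and 0.05 for the core enzymes, of which 4 of 16 were. Without SRRM4 replicate 2 there were 0 calls, without EV replicate 2 there was 1, and without EV replicate 3 or SRRM4 replicate 1 there were 3.

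SRRM4 cells were also set against both LSD1 forms. SRRM4 against LSD1+8a had 4 core enzymes called higher (PKM, GPI, ALDOC and PGAM1), no HIF-responsive gene, and no member lower, where 7.58% of all genes were called, 4.42% higher and 3.17% lower. The 3 SRRM4 libraries lay above all LSD1+8a libraries for 8 members, against 12.7% of all genes, and below them for 0, against 12.8%. Without regard to direction, 25.5% of all genes did not overlap. The log2 fold change was below 0 for 10 of 37 members (50.9% of all genes). Medians were 0.10 for the core enzymes and 0.03 for the HIF-responsive genes. The 4 calls became 1 without LSD1+8a replicate 3, SRRM4 replicate 1 or SRRM4 replicate 2, and 6 without LSD1+8a replicate 2. SRRM4 against LSD1 had 2 members called higher (ALDOC and HK1) and 6 lower (PFKFB4, SLC2A1, PPFIA4, HK2, ANKRD37 and ZNF395), where 7.05% of all genes were called, 4.38% higher and 2.67% lower. The SRRM4 and LSD1 libraries did not overlap for 18 members (25.6% of all genes), with SRRM4 lower for 15 (12.4%) and higher for 3 (13.2%). The median was -0.17 for the HIF-responsive genes and 0.0028 for the core enzymes, of which 8 of 16 were below 0. The sign of that core median turned under some alternatives, down to -0.027. With upper-quartile factors the split of calls was 1 higher and 7 lower. The 8 calls became 2 without SRRM4 replicate 2, 4 without LSD1 replicate 1 and 5 without LSD1 replicate 2.

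**Figure D4:**
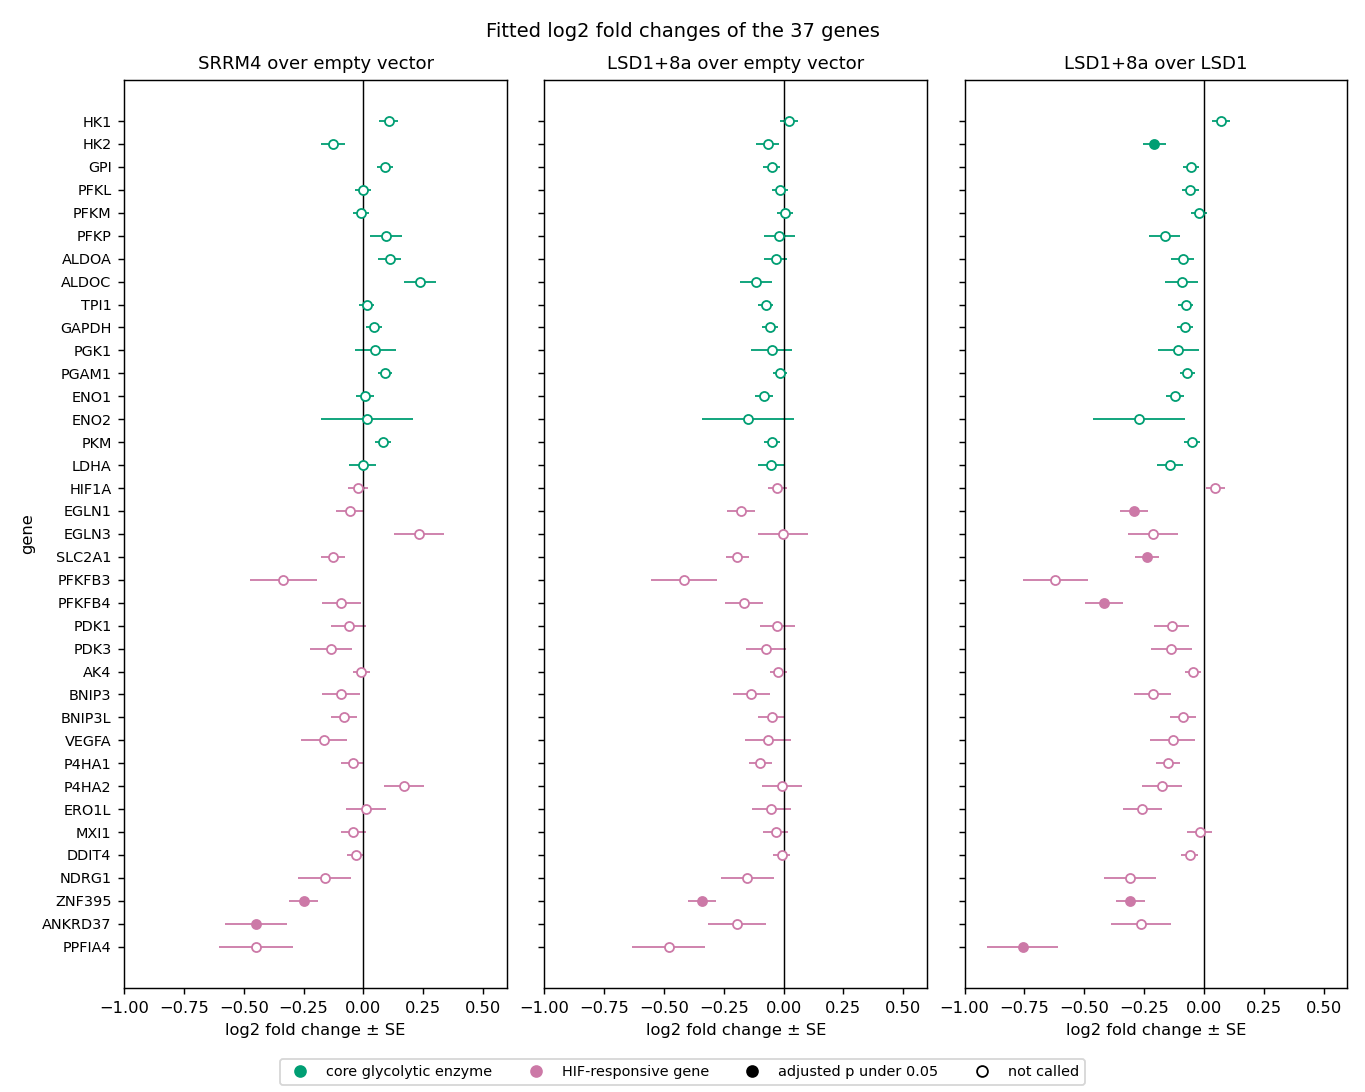
Fitted log2 fold changes ± SE of the 37 genes for SRRM4 over empty vector, LSD1+8a over empty vector and LSD1+8a over LSD1, with core enzymes in green, HIF-responsive genes in pink and filled points for adjusted p under 0.05. In the right panel 6 points are filled, all left of 0, and the largest is PPFIA4 at -0.76.

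Glucose enters the pathway through hexokinases, which phosphorylate it. HK2 had 72.5, 69.8 and 72.6 CPM in SRRM4 cells, 75.4, 79.0 and 69.5 CPM in LSD1+8a cells and 88.6, 83.0 and 86.9 CPM in LSD1 cells, against 77.7, 82.6 and 74.4 CPM in EV cells. HK2 is the inducible form, and all LSD1 libraries stood above all SRRM4 and LSD1+8a libraries. It fell in LSD1+8a cells against LSD1 cells (log2 fold change -0.21 ± 0.05 SE, adjusted p = 0.0424) and in SRRM4 cells against LSD1 cells (log2 fold change -0.27 ± 0.05 SE, adjusted p = 0.00041). Against EV it was -0.07, adjusted p = 0.878 for LSD1+8a and -0.13, adjusted p = 0.117 for SRRM4, as log2 fold changes, and neither passed. LSD1 against EV was 0.14 (adjusted p = 0.645) and did not pass either, with all LSD1 libraries above all EV libraries. The differences from LSD1 cells thus also hold a higher level in LSD1 cells than in EV cells. The call against LSD1 in LSD1+8a cells was lost without LSD1+8a replicate 1 (adjusted p = 0.0842) or 3 (0.399), without LSD1 replicate 1 (0.304) or 3 (0.231), with DESeq2 (0.172), with the replicate block (0.0585) and with limma-trend on TPM (0.653 and 0.662), and its adjusted p ran from 0.0167 to 0.662 over 16 alternatives. The SRRM4 call against LSD1 was lost only with limma-trend on TPM (0.0641 and 0.0643), among alternatives that ran from 0.000106 to 0.0643.

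HK1 had 129.7, 138 and 139 CPM in SRRM4 cells, 134, 125 and 125 CPM in LSD1+8a cells and 119.6, 121 and 125 CPM in LSD1 cells, against 126, 127 and 125 CPM in EV cells. HK1 is the form of most tissues, and its SRRM4 libraries lay above all LSD1 and EV libraries and overlapped the LSD1+8a libraries. It rose in SRRM4 cells against LSD1 cells (log2 fold change 0.15 ± 0.04 SE, adjusted p = 0.0121), a call lost without LSD1 replicate 1 (adjusted p = 0.058), SRRM4 replicate 2 (0.065) or SRRM4 replicate 3 (0.08) and with limma-trend on TPM (0.176 and 0.177), over a range of 0.00811 to 0.177. Against EV it did not pass (log2 fold change 0.11 ± 0.04 SE, adjusted p = 0.0928).

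Next, glucose 6-phosphate is isomerized by GPI and phosphorylated by phosphofructokinases. GPI had 877, 874 and 833 CPM in SRRM4 cells, 795, 803 and 745 CPM in LSD1+8a cells and 838, 799.8 and 794 CPM in LSD1 cells, against 822, 839 and 766 CPM in EV cells. The SRRM4 libraries were above all LSD1+8a libraries. GPI rose in SRRM4 cells against LSD1+8a cells (log2 fold change 0.14 ± 0.03 SE, adjusted p = 0.00917), and lost the call without LSD1+8a replicate 3 (adjusted p = 0.0984), SRRM4 replicate 1 (0.06), SRRM4 replicate 2 (0.0532) and with limma-trend on TPM (0.194 and 0.195), over a range of 0.00316 to 0.195. The phosphofructokinase genes PFKL, PFKM and PFKP were not called in any comparison. Their group means were 325 to 338 CPM for PFKL, 211 to 217 CPM for PFKM and 123 to 138 CPM for PFKP.

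The 6-carbon sugar is cleaved by aldolase, and TPI1 and GAPDH act on the 3-carbon products. ALDOC had 156, 165 and 146 CPM in SRRM4 cells, 110.1, 134 and 122 CPM in LSD1+8a cells and 135, 129 and 126 CPM in LSD1 cells, against 132, 139.5 and 125 CPM in EV cells. ALDOC, the brain form of aldolase, had its highest values in the SRRM4 libraries, above every library of the other groups. It rose in SRRM4 cells against LSD1+8a cells (log2 fold change 0.35 ± 0.07 SE, adjusted p = 0.00735), a call that only the fit of these 2 groups alone lost (adjusted p = 0.0501, over a range of 1.58e-06 to 0.0501). It rose against LSD1 cells as well (log2 fold change 0.26 ± 0.07 SE, adjusted p = 0.0393), a call lost without any one of LSD1 replicates 1, 2 and 3 or SRRM4 replicates 1 and 2 (adjusted p 0.0565 to 0.148), with upper-quartile factors (0.0551) and with limma-trend on TPM (0.114 and 0.115), over a range of 4.39e-05 to 0.148.

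Against EV, ALDOC missed the threshold (log2 fold change 0.24 ± 0.07 SE, adjusted p = 0.052) and passed in 6 alternatives, over a range of 0.00133 to 0.157. Among them were DESeq2 (adjusted p = 0.0043), limma-voom (0.0482) and the fit without SRRM4 replicate 3 (0.0232). The authors' deposited table gives the same values as DESeq2 here (log2 fold change 0.24, adjusted p = 0.0043) and is not a separate result. ALDOA, the most abundant aldolase, was 0.11, adjusted p = 0.204 in SRRM4 against EV and -0.09, adjusted p = 0.842 in LSD1+8a against LSD1, as log2 fold changes, and was not called. TPI1 averaged 1005 ± 20.0 CPM in SRRM4 cells, 945 ± 34.2 CPM in LSD1+8a cells and 995 ± 33.6 CPM in LSD1 cells, against 996 ± 25.1 CPM in EV cells (SD, n = 3 each). GAPDH averaged 3647 ± 78.3 CPM in SRRM4 cells, 3402 ± 142 CPM in LSD1+8a cells and 3592 ± 119.9 CPM in LSD1 cells, against 3541 ± 97.1 CPM in EV cells (SD, n = 3 each). Neither was called in the edgeR fit. GAPDH in SRRM4 against LSD1+8a had an adjusted p of 0.0542, and passed with RLE size factors (0.0485), DESeq2 (0.0297), limma-voom (0.0294) and without LSD1+8a replicate 2 (0.0177). ALDOA passed there without that library (0.00598), with the replicate block (0.0129) and in the fit of the 2 groups alone (0.013).

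Lower glycolysis makes pyruvate, and LDHA reduces it to lactate. PGAM1 had 648, 672 and 637 CPM in SRRM4 cells, 602, 628 and 588 CPM in LSD1+8a cells and 653, 624 and 629.6 CPM in LSD1 cells, against 612, 609.8 and 617 CPM in EV cells. PKM had 1442, 1474 and 1378 CPM in SRRM4 cells, 1303, 1369.8 and 1251 CPM in LSD1+8a cells and 1375, 1348 and 1339 CPM in LSD1 cells, against 1353, 1402 and 1306 CPM in EV cells. PGAM1, a phosphoglycerate mutase, and PKM, pyruvate kinase, had all SRRM4 libraries above all LSD1+8a libraries. Both rose in SRRM4 cells against LSD1+8a cells, PGAM1 by 0.11 ± 0.03 SE (adjusted p = 0.0284) and PKM by 0.13 ± 0.03 SE (adjusted p = 0.0116) on the log2 scale. Without LSD1+8a replicate 3, SRRM4 replicate 1 or SRRM4 replicate 2 the calls were lost, with adjusted p of 0.0669 to 0.172 for PGAM1 and 0.0561 to 0.125 for PKM, and with limma-trend on TPM they were 0.137 for both. Over all alternatives adjusted p ran from 0.0154 to 0.172 for PGAM1 and 0.00318 to 0.137 for PKM.

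The other genes of this stretch were not called in any comparison. LDHA missed the threshold in LSD1+8a against LSD1 (log2 fold change -0.14 ± 0.05 SE, adjusted p = 0.674), and without LSD1+8a replicate 2 it was called (log2 fold change -0.21, adjusted p = 0.00127). ENO1, an enolase, was -0.12, adjusted p = 0.365 in LSD1+8a against LSD1 as a log2 fold change, with all LSD1+8a libraries below all LSD1 libraries. PGK1, a phosphoglycerate kinase, was -0.11, adjusted p = 0.923, and ENO2, the neuronal enolase, was -0.27, adjusted p = 0.908. ENO2 had 37.5, 30.2 and 32.1 CPM in SRRM4 cells, against 35.7, 36.2 and 27.1 CPM in EV cells, and these values overlapped.

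Among the oxygen sensing genes, HIF1A was not called in any comparison. HIF1A had 120.0, 120.5 and 126 CPM in SRRM4 cells, 124, 120.1 and 122 CPM in LSD1+8a cells and 112, 123 and 119 CPM in LSD1 cells, against 123, 121 and 129 CPM in EV cells. Its log2 fold change was 0.05 (95% interval -0.03 to 0.13) in LSD1+8a against LSD1, -0.03 (95% interval -0.11 to 0.05) in LSD1+8a against EV, -0.07 (95% interval -0.15 to 0.007) in LSD1 against EV and -0.02 (95% interval -0.10 to 0.06) in SRRM4 against EV. EGLN1 had 47.2, 45.6 and 40.6 CPM in SRRM4 cells, 40.3, 41.5 and 40.8 CPM in LSD1+8a cells and 50.002, 52.0 and 48.1 CPM in LSD1 cells, against 46.3, 49.0 and 43.5 CPM in EV cells. EGLN1 is the main hydroxylase that marks HIF1A, and the LSD1+8a libraries lay below every LSD1 and EV library. It fell in LSD1+8a cells against LSD1 cells (log2 fold change -0.29 ± 0.06 SE, adjusted p = 0.00772), a call lost without LSD1 replicate 2 (adjusted p = 0.0803) and with limma-trend on TPM (0.63 and 0.637), over a range of 0.00392 to 0.637. Against EV it did not pass (log2 fold change -0.18 ± 0.06 SE, adjusted p = 0.38). EGLN3, the family member most induced by hypoxia, averaged 17.2 ± 1.59 CPM in SRRM4 cells and 14.6 ± 1.13 CPM in LSD1+8a cells, 16.9 ± 2.60 CPM in LSD1 cells and 14.6 ± 1.53 CPM in EV cells (SD, n = 3 each), and was not called in any comparison.

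Glucose uptake and flux are set by SLC2A1, the PFKFB kinases, which make the activator fructose 2,6-bisphosphate, and the PDK kinases, which inhibit pyruvate dehydrogenase. SLC2A1 had 65.0, 68.7 and 68.2 CPM in SRRM4 cells, 60.4, 68.6 and 64.0 CPM in LSD1+8a cells and 78.5, 76.9 and 71.9 CPM in LSD1 cells, against 72.8, 75.7 and 71.99 CPM in EV cells. All LSD1 and EV libraries were above all SRRM4 and LSD1+8a libraries. SLC2A1 fell in LSD1+8a cells against LSD1 cells (log2 fold change -0.24 ± 0.05 SE, adjusted p = 0.0129) and in SRRM4 cells against LSD1 cells (log2 fold change -0.17 ± 0.05 SE, adjusted p = 0.0298). Against EV it was -0.19, adjusted p = 0.0949 in LSD1+8a and -0.13, adjusted p = 0.116 in SRRM4, as log2 fold changes, without a call, and LSD1+8a against EV passed without LSD1+8a replicate 2 (-0.24, adjusted p = 0.023). The first call was lost without LSD1+8a replicate 1 (adjusted p = 0.156) or 3 (0.0629) or LSD1 replicate 1 (0.177) or 2 (0.0793), with DESeq2 (0.0639) and limma-trend on TPM (0.162 and 0.161). The second was lost without LSD1 replicate 1 or 2 or any single SRRM4 replicate (0.0569 to 0.14), with DESeq2 (0.121) and limma-trend on TPM (0.147 and 0.15). Adjusted p ran from 0.0033 to 0.177 for the first and 0.0208 to 0.15 for the second.

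PFKFB4 had 33.0, 28.6 and 30.3 CPM in SRRM4 cells, 30.9, 31.01 and 25.3 CPM in LSD1+8a cells and 40.8, 36.0 and 39.7 CPM in LSD1 cells, against 36.4, 31.5 and 30.3 CPM in EV cells. The LSD1 libraries were above every SRRM4 and LSD1+8a library, while the EV libraries spanned 30.3 to 36.4 CPM and overlapped all 3 groups. PFKFB4 fell in LSD1+8a cells against LSD1 cells (log2 fold change -0.42 ± 0.08 SE, adjusted p = 0.00606) and in SRRM4 cells against LSD1 cells (log2 fold change -0.34 ± 0.08 SE, adjusted p = 0.00691). In LSD1 against EV it was 0.25, adjusted p = 0.518 as a log2 fold change. The LSD1+8a call was lost without LSD1+8a replicate 3 (adjusted p = 0.0582), LSD1 replicate 1 (0.09) or LSD1 replicate 3 (0.0593) and with limma-trend on TPM (0.56 and 0.557), over a range of 0.00073 to 0.56. The SRRM4 call was lost without SRRM4 replicate 2 (0.0588) and with limma-trend on TPM (0.257 and 0.262), over a range of 0.000843 to 0.262.

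PFKFB3 had the second largest difference of the set in LSD1+8a against LSD1 but was not called. It had 31.2, 32.2 and 38.0 CPM in SRRM4 cells, 37.7, 30.5 and 27.1 CPM in LSD1+8a cells and 53.4, 45.2 and 48.2 CPM in LSD1 cells, against 45.7, 45.4 and 36.7 CPM in EV cells. The LSD1+8a libraries lay below all LSD1 libraries, and the spread within groups was wide. Its log2 fold change was -0.62, adjusted p = 0.253 against LSD1 in LSD1+8a cells and -0.54, adjusted p = 0.0527 against LSD1 in SRRM4 cells. The first passed with DESeq2 (0.00532) and without LSD1+8a replicate 1 (log2 fold change -0.77, adjusted p = 0.009), over a range of 0.00532 to 0.626. The second passed with DESeq2 (0.00769), with upper-quartile factors (0.0435), with a replicate block (0.0445), in a fit of the 2 groups alone (3.2e-05) and without SRRM4 replicate 3 (0.0492). PDK1 and PDK3 were not called in any comparison. PDK1 was -0.17, adjusted p = 0.185 and PDK3 -0.20, adjusted p = 0.185 in SRRM4 against LSD1, as log2 fold changes.

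**Figure D5:**
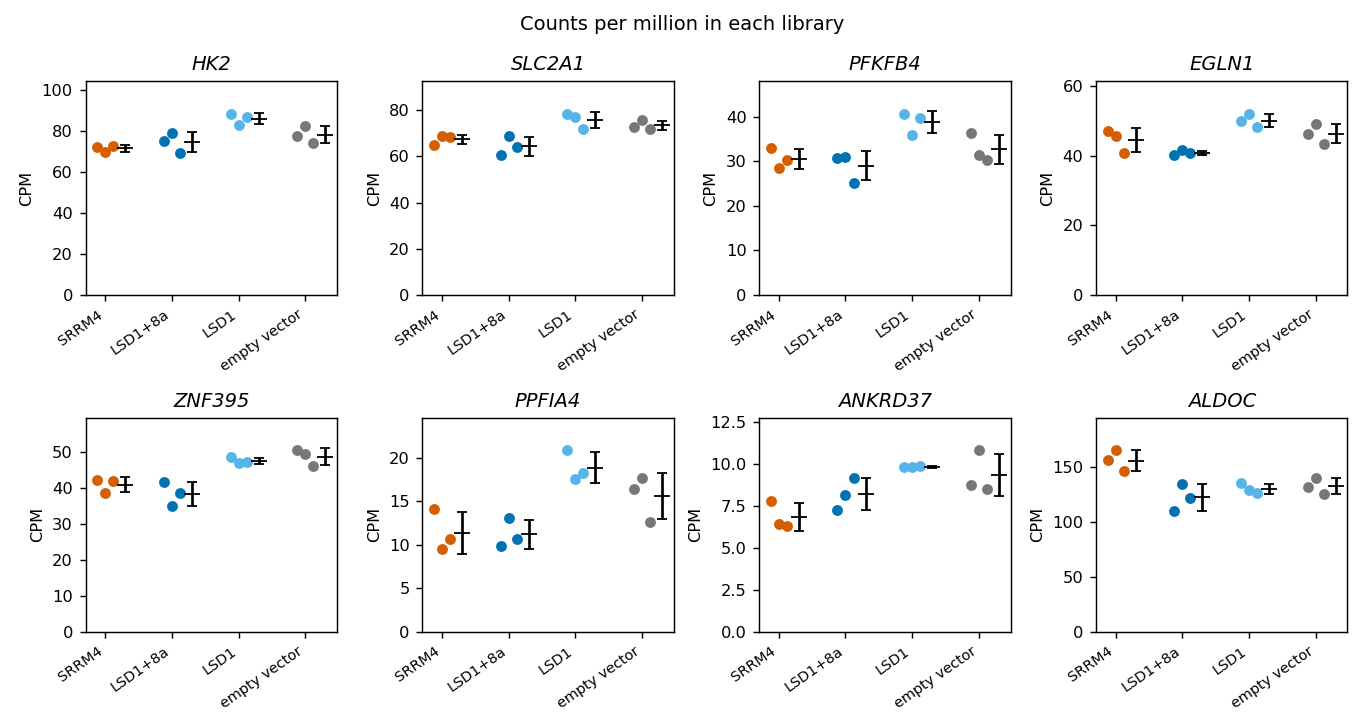
Levels in CPM of 8 members that passed a test in at least 1 comparison, 1 point per library and black bars for the mean ± SD of 3 libraries. SLC2A1, PFKFB4, HK2 and PPFIA4 are higher in every LSD1 library than in any SRRM4 or LSD1+8a library, and ALDOC is highest in the SRRM4 libraries.

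The growth and transcription genes held 3 members with calls. ZNF395 had 42.1, 38.6 and 42.0 CPM in SRRM4 cells, 41.6, 34.8 and 38.5 CPM in LSD1+8a cells and 48.6, 46.8 and 47.1 CPM in LSD1 cells, against 50.4, 49.5 and 46.0 CPM in EV cells. ZNF395, a zinc-finger factor induced by hypoxia, was lower in every SRRM4 and LSD1+8a library than in every LSD1 and EV library. It fell in LSD1+8a cells against EV (log2 fold change -0.34 ± 0.06 SE, adjusted p = 0.000917) and against LSD1 (log2 fold change -0.31 ± 0.06 SE, adjusted p = 0.00657), and in SRRM4 cells against EV (log2 fold change -0.25 ± 0.06 SE, adjusted p = 0.0068) and against LSD1 (log2 fold change -0.22 ± 0.06 SE, adjusted p = 0.0258). It was the only member called in 4 comparisons, and between SRRM4 and LSD1+8a it did not pass (log2 fold change 0.09 ± 0.06 SE, adjusted p = 0.434). The authors' deposited table had it at -0.25 (adjusted p = 0.0398) in SRRM4 and -0.34 (adjusted p = 0.00497) in LSD1+8a against EV, as log2 fold changes. That table comes from the same counts and matched the DESeq2 alternative for ALDOC, so it is not separate support. Against EV the LSD1+8a call was lost only with limma-trend on TPM (0.536 and 0.548), over a range of 0.000145 to 0.548. The SRRM4 call against EV was lost there too (0.311 and 0.315) and without SRRM4 replicate 2 (0.063), over a range of 0.00456 to 0.315. Against LSD1 the LSD1+8a call was lost without LSD1+8a replicate 2 (0.145) or LSD1 replicate 1 (0.0741) and with limma-trend on TPM (0.578 and 0.581), over a range of 0.00102 to 0.581. The SRRM4 call against LSD1 was lost without SRRM4 replicate 2 or any single LSD1 replicate (0.0549 to 0.157), with DESeq2 (0.116) and limma-trend on TPM (0.294 and 0.297), over a range of 0.0137 to 0.297. Its exons overlap those of FBXO16 on the same strand in GENCODE v29, so its reads are uncertain.

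PPFIA4 had 14.1, 9.47 and 10.6 CPM in SRRM4 cells, 9.88, 13.1 and 10.7 CPM in LSD1+8a cells and 20.9, 17.6 and 18.2 CPM in LSD1 cells, against 16.5, 17.7 and 12.6 CPM in EV cells. All LSD1 libraries were above every SRRM4 and LSD1+8a library, and 2 of 3 EV libraries were too. PPFIA4 fell in LSD1+8a cells against LSD1 (log2 fold change -0.76 ± 0.15 SE, adjusted p = 0.0424) and in SRRM4 cells against LSD1 (log2 fold change -0.73 ± 0.15 SE, adjusted p = 0.0083), the largest differences among the members. The LSD1+8a call was lost without LSD1+8a replicate 1 or 3 or any single LSD1 replicate (adjusted p 0.092 to 0.246), with upper-quartile factors (0.0529) and with limma-trend on TPM (0.401 and 0.394), over a range of 4.05e-05 to 0.401. The SRRM4 call was lost with limma-trend on TPM (0.207), over a range of 0.000151 to 0.207. Against EV it missed in both (-0.48, adjusted p = 0.456 in LSD1+8a and -0.45, adjusted p = 0.0973 in SRRM4, as log2 fold changes). Both were called without EV replicate 3, at -0.61 with adjusted p = 0.0302 in LSD1+8a and -0.58 with adjusted p = 0.00843 in SRRM4, and SRRM4 against EV also without SRRM4 replicate 1 (0.0072).

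ANKRD37 had 7.81, 6.43 and 6.32 CPM in SRRM4 cells, 7.26, 8.17 and 9.18 CPM in LSD1+8a cells and 9.81, 9.79 and 9.87 CPM in LSD1 cells, against 8.76, 10.8 and 8.52 CPM in EV cells. ANKRD37, an ankyrin-repeat protein and a HIF1 target, was lower in every SRRM4 library than in any LSD1 or EV library. It fell in SRRM4 cells against EV (log2 fold change -0.45 ± 0.13 SE, adjusted p = 0.0263) and against LSD1 (log2 fold change -0.52 ± 0.13 SE, adjusted p = 0.0108). In LSD1+8a cells it was -0.19, adjusted p = 0.85 against EV and -0.26, adjusted p = 0.776 against LSD1, as log2 fold changes, and neither passed. The call against EV was lost without EV replicate 2 (adjusted p = 0.178), SRRM4 replicate 2 (0.11) or SRRM4 replicate 3 (0.117), with DESeq2 (0.138) and with limma-trend on TPM (0.152 and 0.15), over a range of 0.0195 to 0.178. The call against LSD1 was lost without SRRM4 replicate 2 (0.0639) or 3 (0.0626), with DESeq2 (0.0648) and with limma-trend on TPM (0.194 and 0.193), over a range of 0.00749 to 0.194. NDRG1, MXI1 and DDIT4 were not called in the edgeR fit of the 4 groups. NDRG1, a gene of growth arrest and hypoxia, was -0.31, adjusted p = 0.671 in LSD1+8a against LSD1 and -0.32, adjusted p = 0.144 in SRRM4 against LSD1, as log2 fold changes, and SRRM4 against LSD1 passed in the fit of only its 2 groups (0.00629). MXI1, an antagonist of MYC, averaged 55.6 CPM in SRRM4 cells, against 57.3 CPM in EV cells.

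No mitochondrial or secreted and matrix gene was called in the edgeR fit of the 4 groups. BNIP3 was called in SRRM4 against LSD1 in the fit of only those 2 groups. BNIP3 had 233, 211 and 224 CPM in SRRM4 cells, 201, 236 and 213 CPM in LSD1+8a cells and 266, 247 and 239.7 CPM in LSD1 cells, against 246, 252 and 216 CPM in EV cells. BNIP3 had the smallest unadjusted p of the mitochondrial genes, with all LSD1+8a libraries below all LSD1 libraries (log2 fold change -0.21, unadjusted p = 0.0233, adjusted p = 0.673 in edgeR). AK4, an adenylate kinase, and BNIP3L, a second mitophagy receptor, were -0.05, adjusted p = 0.914 and -0.09, adjusted p = 0.878 in the same comparison. ERO1L had 22.7, 19.4 and 22.5 CPM in SRRM4 cells, 21.1, 21.1 and 19.8 CPM in LSD1+8a cells and 26.1, 23.1 and 24.9 CPM in LSD1 cells, against 23.7, 21.2 and 19.5 CPM in EV cells. ERO1L, the endoplasmic reticulum oxidase, had the smallest unadjusted p of the secretion and matrix genes in LSD1+8a against LSD1 (log2 fold change -0.26, unadjusted p = 0.00329, adjusted p = 0.362 in edgeR). VEGFA was -0.16, adjusted p = 0.398 in SRRM4 against EV, -0.07, adjusted p = 0.951 in LSD1+8a against EV and -0.13, adjusted p = 0.914 in LSD1+8a against LSD1, as log2 fold changes. Its largest difference was SRRM4 against LSD1 (-0.23, adjusted p = 0.226 in edgeR), which limma-trend on TPM called (-0.31, adjusted p = 0.0433 and 0.0434). Of the collagen prolyl hydroxylases, P4HA1 was -0.15, adjusted p = 0.392 and P4HA2 -0.17, adjusted p = 0.783 in LSD1+8a against LSD1.

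Other genes of the pathway were taken from 4 lists of glycolysis, pentose phosphate, HIF pathway and hypoxia-induced genes, of which 91 of 121 were measured. In LSD1+8a against LSD1 none was called higher and 2 lower (0.323% of all genes were called): KDM3A, a histone demethylase and HIF target, and PPP1R3B, a glycogen phosphatase subunit. KDM3A averaged 58.0 ± 2.67 CPM in SRRM4 cells, 55.1 ± 4.48 CPM in LSD1+8a cells and 70.6 ± 3.60 CPM in LSD1 cells, against 68.3 ± 5.08 CPM in EV cells (SD, n = 3 each). It fell in LSD1+8a cells against LSD1 (log2 fold change -0.36 ± 0.06 SE, adjusted p = 0.000789) and against EV (log2 fold change -0.31 ± 0.06 SE, adjusted p = 0.00483), and in SRRM4 cells against EV (log2 fold change -0.24 ± 0.06 SE, adjusted p = 0.011). The first call held without any single library, and was lost only with limma-trend on TPM, over an adjusted p range of 0.000187 to 0.43. The second was lost without EV replicate 1 (0.0909) or LSD1+8a replicate 3 (0.0858), and the SRRM4 call without EV replicate 1 (0.0879) or SRRM4 replicate 1 (0.082), and both with limma-trend on TPM. PPP1R3B was -0.30, adjusted p = 0.0119 in LSD1+8a against LSD1, lost without LSD1+8a replicate 3 (0.0729), LSD1 replicate 1 (0.0958) or LSD1 replicate 3 (0.0621), and with DESeq2 (0.11) and limma-trend on TPM (0.657 and 0.662). In SRRM4 against EV it was -0.32, adjusted p = 0.00119, as a log2 fold change. LSD1 against EV had none called of the 91 by edgeR, and at an unadjusted p under 0.05 it had 3 higher and 3 that were lower, near the 3.09% and 2.8% of all genes.

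In SRRM4 against EV, 8 of the 91 were called higher and 9 lower, where 4.47% of all genes were called higher and 3.22% lower. TKT, transketolase, rose by 0.20 (adjusted p = 2.58e-05) on the log2 scale. LDHB, the other lactate dehydrogenase, rose by 0.12 (adjusted p = 0.00918). PCK2, the mitochondrial gluconeogenic enzyme, fell (log2 fold change -0.23 ± 0.03 SE, adjusted p = 1.22e-06). The TKT, LDHB, PCK2 and DPYSL4 calls held in all 16 alternatives run. Of the 50 hypoxia-induced genes measured, 4 were called higher and 8 lower. The higher ones included DPYSL4 (log2 fold change 0.76 ± 0.10 SE, adjusted p = 8.76e-06) and ZNF292 (0.28, adjusted p = 0.0121). The lower ones included the glycoprotein hormone STC2 (-0.28, adjusted p = 3.03e-06), the transcription factor FOXO3 (-0.18, adjusted p = 0.00111), the ephrin EFNA1 (-0.19, adjusted p = 0.00174), ARRDC3 (-0.27, adjusted p = 0.00763), NOL3 (-0.21, adjusted p = 0.00834) and TXNIP, which restrains glucose uptake (-0.14, adjusted p = 0.0415). The STC2, FOXO3, EFNA1, ARRDC3 and PPP1R3B calls against EV were lost only with limma-trend on TPM, with adjusted p up to 0.0943, 0.108, 0.162, 0.0543 and 0.171 in that order. TXNIP was lost without EV replicate 2 or 3 or any single SRRM4 replicate (0.082 to 0.169), NOL3 without EV replicate 2 (0.0509) or SRRM4 replicate 1 (0.0596), and ZNF292 without EV replicate 1 (0.0568) or SRRM4 replicate 3 (0.0805) and with DESeq2 (0.0678). All 3 were also lost with limma-trend on TPM (0.289 to 0.325). CCNG2, an unusual cyclin, was called lower in SRRM4 against LSD1 (-0.23, adjusted p = 0.00856), a call lost without LSD1 replicate 2 (0.0573) or SRRM4 replicate 2 (0.084), in the fit of the 2 groups alone (0.0871) and with limma-trend on TPM (0.0642 and 0.0643). SRRM4 against LSD1+8a had 8 of the 91 called higher and 5 lower (4.42% and 3.17% of all genes), and SRRM4 against LSD1 had 9 higher and 10 lower (4.38% and 2.67% of all genes). Of the 12 measured HIF pathway genes none was called in the edgeR fit of any comparison, with 3 at an unadjusted p under 0.05 in SRRM4 against EV (20.8% of all genes), 1 each in LSD1 against EV (5.89%), SRRM4 against LSD1+8a (21.2%) and SRRM4 against LSD1 (21%), and 0 in LSD1+8a against EV (6.82%) and LSD1+8a against LSD1 (6.21%).

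Some of these counts may hold reads of neighbouring or near-identical genes. For pseudogenes and overlaps on the same strand this holds whether or not reads were counted by strand. For antisense overlaps it depends on that setting, which the sources used here do not give. In GENCODE v29 for GRCh38, 4 of the 12 members called in any comparison have named pseudogenes (13 for PGAM1, 5 for PKM, 1 each for HK2 and EGLN1). Antisense exons overlap 5 of them (HK1, HK2, ALDOC, SLC2A1 and ANKRD37), and exons of another gene on the same strand overlap 4 (GPI, SLC2A1, PFKFB4 and ZNF395). PPFIA4 had neither.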

How the data were processed

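Polyadenylated RNA of 12 libraries, 3 from each of 4 groups of transfected LNCaP cells, was sequenced. STAR 2.5.3a, RSEM 1.2.31 and the genome build hg19 are named in the submitters' processing notes, with no role or order. The authors deposited raw counts per gene, with no normalization, for 13001 genes. The authors also deposited TPM values, and tables of log2 fold changes with p-values and adjusted p-values for each plasmid over empty vector. How genes were filtered, and whether reads were counted by strand, is not given in the sources used here.

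Counts were tested with edgeR 4.0.16 (R 4.3.3): TMM factors, its expression filter, which removed 0 genes, and the robust quasi-likelihood F test in 1 model of the 4 groups with 8 residual degrees of freedom. P-values were adjusted by Benjamini-Hochberg over all genes in each of the 6 comparisons, and SE is the fold change divided by the root of F. Intervals are at 95%. Log2 CPM used a prior count of 2. The biological coefficient of variation was 2.98%, and no 2 libraries of a group agreed within sampling noise. Alternatives used RLE or upper-quartile factors, no filter or a stricter one, DESeq2 1.42.0, limma 3.58.1 (voom on counts, or trend on the log2 of TPM after adding 1 or 0.1), a replicate block, only the 2 groups compared, and leaving out each library. The scripts were tested on simulated data.

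The 37 members, the pathway and marker lists, and the tests were chosen with earlier results of these data known. Values in every library are given for members called in any comparison and, in roles without a call, for the member with the smallest unadjusted p. Of other pathway genes at most 15 called ones were taken, by smallest adjusted p, and 1 of them is not reported here. Promoters are given for at most 6 called members.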

Additional observations from a re-analysis of the deposited data

How the results depend on the processing

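Recomputed were the counts of calls, the class medians, each member at an unadjusted p under 0.05, and, chosen after seeing the data, 15 pathway genes with calls. No fold change among these turned its direction, which was likely from the start, since only genes with a low p were followed. Fold changes of the other members were not followed singly, and the core median in SRRM4 against LSD1 did change sign. Of 1196 member values under an alternative 1065 kept their side of the threshold, 102 lost it and 29 gained it. None of the 21 member calls held in every alternative. Of 39 pathway calls 11 did. With limma-trend on TPM (pseudocounts 1 and 0.1) members called were 0 and 0 in SRRM4 against EV, 0 and 0 in LSD1+8a against EV, 0 and 0 in LSD1+8a against LSD1, 1 and 1 in SRRM4 against LSD1+8a, and 1 and 1 in SRRM4 against LSD1, where that member was VEGFA and all 8 edgeR calls were lost. Genes called in these 5 comparisons were then 327 and 325 (999 in the edgeR fit), 24 and 24 (45), 21 and 19 (42), 211 and 203 (986), and 185 and 178 (916), and in LSD1 against EV 6 and 6 (13). DESeq2 called 563, 529 and 499 genes in SRRM4 against EV, LSD1+8a and LSD1, with 11992 genes given an adjusted p against LSD1+8a. Fits of only the 2 groups gave 4 members in SRRM4 against EV and 20 genes in LSD1 against EV. The median of the HIF-responsive genes in LSD1+8a against LSD1 was -0.21, and with limma-trend on TPM -0.141 and -0.143. The cause of these shifts was not tested. Upper-quartile factors turned the split of called genes in SRRM4 against EV to 497 higher and 561 lower, against 581 and 418 with TMM. DESeq2 called 1 gene higher and 18 lower in LSD1 against EV among the 651 genes to which it gave an adjusted p, against 6 and 7 of 13001 with edgeR.

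Leaving out 1 library gave 661 to 809 genes and 0 to 3 members in SRRM4 against EV, 34 to 66 genes and 1 to 2 members in LSD1+8a against EV, 5 to 14 genes and 0 members in LSD1 against EV, 29 to 45 genes and 1 to 6 members in LSD1+8a against LSD1, 561 to 1006 genes and 1 to 6 members in SRRM4 against LSD1+8a, and 488 to 748 genes and 2 to 6 members in SRRM4 against LSD1. Medians of the HIF-responsive genes then ran from -0.127 to -0.055 in LSD1+8a against EV and 0.0499 to 0.124 in LSD1 against EV.

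Same-numbered libraries of different groups had low correlations of their deviations, from -0.163 to 0.143 over 18 pairs (median -0.0611). Pairs of different number were not compared, so whether a number marks a shared culture or day was not tested. With the replicate block 887 genes and 3 members were called in SRRM4 against EV, 5 members in LSD1+8a against LSD1, 5 in SRRM4 against LSD1+8a and 9 in SRRM4 against LSD1. In LSD1+8a against LSD1 the widest standard errors among the members were those of ENO2 (0.19), PPFIA4 (0.15), PFKFB3 (0.14) and ANKRD37 (0.12) on the log2 scale. Differences well above these errors could also go uncalled: PFKFB3 at -0.62 had an adjusted p of 0.253 in edgeR.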
